A study of Mus musculus with 36 samples.

Results

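Glutathione S-transferases are the enzymes described here, by the transcripts of 10 members measured in mouse blood after x-ray, neutron, and mixed field exposure. Members were taken by gene name in the array annotation, and the set was chosen by measured values of these arrays: Gstt1 for its difference from the controls and its wide spread among them, with the other members proposed beside it when results were known. They are 10 of 31093 gene names on the array, with 12 of 39429 gene probes, and 9 of the 10 passed the filters for testing among 15085 genes.

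Male C57BL/6J mice of 8 to 10 weeks were studied 7 days after exposure, with 6 mice in each of 6 groups and 1 single-colour Agilent array per mouse. The controls were not irradiated. The other groups received 3 Gy of x-rays, 3 Gy of mixed field radiation of which neutrons made up 5, 15, or 25% (0.15, 0.45, or 0.75 Gy of neutrons), or 0.75 Gy of neutrons without added x-rays. The neutron source also delivers some photons. The neutron exposure and the 3 Gy exposures therefore differed in total dose as well as in radiation type, and these cannot be told apart. Blood was drawn by cardiac puncture into an RNA stabilizing solution, and whole blood RNA, cleared of globin transcripts, was labelled, so that fewer cells of a type and less RNA per cell cannot be told apart in any value below.

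Glutathione S-transferases join the tripeptide glutathione to electrophilic compounds, among them drugs, pollutants, and products of lipid peroxidation, and so prepare them for export. The soluble enzymes fall into classes named by Greek letters (alpha, kappa, mu, omega, pi, theta, zeta), and several are abundant in liver. In blood, red cells hold much glutathione, which glutathione peroxidases use to remove peroxides.

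The array reads each transcript through an oligonucleotide of 60 bases, and the probes decide which part of a transcript was measured. The last 30 bases of 4 of the 12 member probes hold the polyadenylation signal AATAAA, against 10.6% of all gene probes. Their 30 terminal bases are given with the signal in capitals, since Gstt1, on which most of the results turn, is among them.
Gstt1: ggtAATAAActggggcttgatttgggcttt
Gstm1 (the brighter of its 2 probes): gtctcatctacAATAAAgtctgaaacacac
Gstk1: gcattcccataaAATAAAgttgatgccacc
Gstz1: ccatgggctaaAATAAAccttctctccttt

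The probes of Gstm5, Gstt2, and Gstp1 (the brighter of 2) hold no such signal in their last 30 bases. They are given because Gstm5 was called in every exposure, Gstt2 was called lower after neutrons, and Gstp1 was called in 2 mixed fields.
Gstm5: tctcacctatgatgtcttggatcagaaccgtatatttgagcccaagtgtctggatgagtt
Gstt2: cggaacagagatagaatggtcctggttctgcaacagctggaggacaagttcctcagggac
Gstp1: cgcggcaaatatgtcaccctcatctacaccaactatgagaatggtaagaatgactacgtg

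No member probe shared a run of more than 17 bases with a probe of another gene on either strand. Whole transcripts of other genes were not searched, so a match to a related transcript outside its probes would have been missed. By the annotation of the array (mm9) the Gstt1 probe lies at chr10:75246560-75246619, the Gstt3 probe at chr10:75236966-75237025, and the Gstt2 probe at chr10:75295206-75295265. The Gstm5 probe lies at chr3:107701101-107701160 and the Gsto1 probe at chr19:47939128-47939187. The brighter Gstm1 probe is placed on chromosome 5 by the annotation and the other on chromosome 3, where Gstm5 also lies. The Gsta4 probe and the brighter Gstp1 probe have no position there.

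All levels are log2 intensities relative to the median of the same array, so that a difference of 1 is a doubling. Between 15569 and 21294 probes were well above background on an array, and the median intensity ran from 6.80 to 39.3. The arrays were scanned in 4 sessions. Session 1 held 5 control and 5 x-ray arrays, session 2 held 5 arrays of 5% and 5 of 15%, session 4 held 1 array each of the controls, x-rays, 5%, and 15%, and session 3 held all arrays of 25% and of the neutron exposure. In comparisons with controls or x-rays, scan session and exposure cannot be told apart for 25% and neutrons, and for 5% and 15% a single array of each group shares a session with them.

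Transcripts made mainly by the liver differed between arrays far more than any other marker list, and the arrays that carried many of them were spread unevenly over the groups. The mean level of 7 such transcripts (Alb, Apoa1, Apoa2, Ttr, Fgb, Serpina1a, and Cyp2e1) ran from 0.53 to 10.26 in controls, 0.37 to 10.97 after x-rays, 0.52 to 12.61 at 5%, 5.25 to 13.30 at 15%, 8.16 to 12.47 at 25%, and 0.52 to 5.45 after neutrons. Alb, the serum albumin transcript, spanned -2.16 to 15.13 and was significantly above background on 30 of 36 arrays. The liver mean lay above 7.5 on 2 control arrays, 2 x-ray arrays, 4 arrays at 5%, 2 at 15%, all 6 at 25%, and none after neutrons. Several transferases moved with these transcripts, and the differences of the members from controls are therefore given with and without the liver mean in the model. Among blood cell lists, the mean of 14 red cell transcripts was 5.62 to 6.26 in controls, 6.99 to 9.20 on the arrays of the 3 Gy exposures, and 7.39 to 7.81 after neutrons, and 7 B-cell transcripts had means of 6.13 to 6.87 in controls, 1.45 to 4.5 after 3 Gy exposures, and 4.96 to 5.48 after neutrons. The part of these cell types in the results was not tested.

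**Figure D1:**
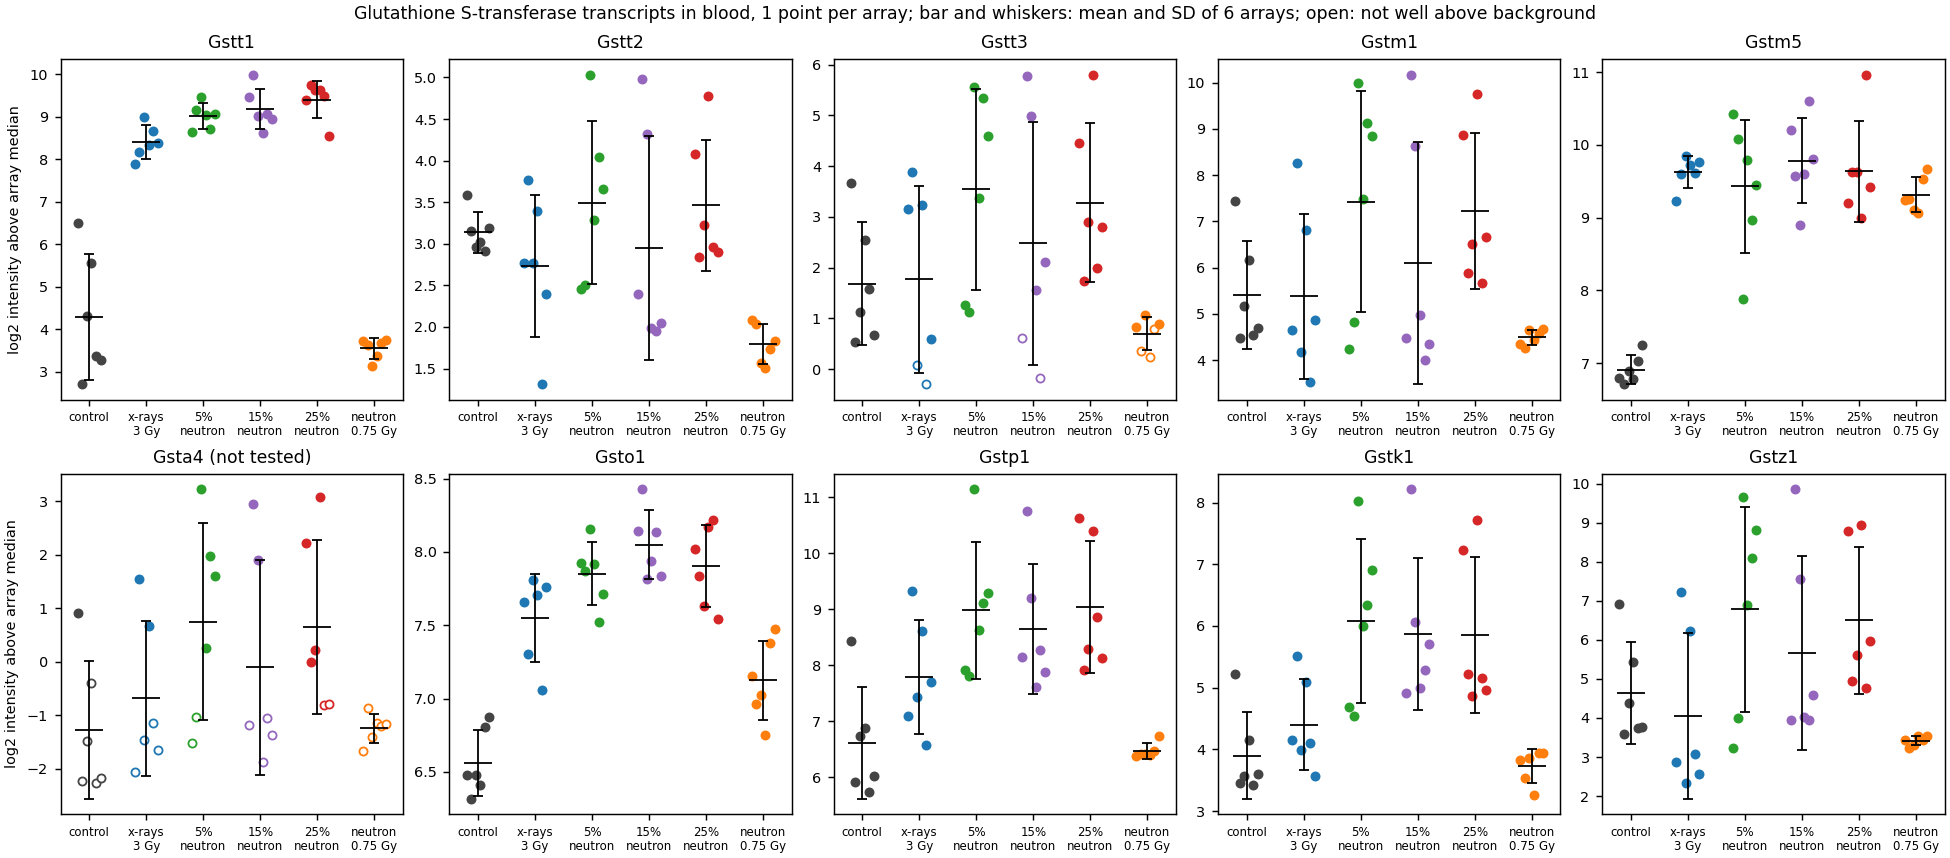
Log2 intensity above the array median (vertical axes, each with its own range) of the 10 transferases on the 36 arrays by group. Points are arrays, bars and whiskers the mean and SD of 6, and open points were not well above background. Gstt1 separated the 3 Gy exposures from controls and neutrons, Gstm5 separated every exposure from controls, and most other members overlapped between groups.

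Gstt1, a theta class enzyme that conjugates small halogenated compounds, was high on all 24 arrays of the exposures that contained x-rays and low on the arrays of the other 2 groups. The control arrays read 6.51, 2.70, 4.31, 5.56, 3.36, and 3.28. After x-rays they read 7.87, 8.17, 9.0, 8.33, 8.65, and 8.38. The lowest of these lay above the highest control, although the controls themselves spanned 3.80. In the mixed fields Gstt1 read 8.64, 9.17, 9.46, 9.04, 8.71, and 9.05 at 5%. It read 9.46, 9.99, 9.01, 8.63, 9.06, and 8.94 at 15%. It read 9.38, 9.74, 9.63, 9.63, 9.48, and 8.54 at 25%. No mixed field array fell to the range of the controls. After neutrons it read 3.73, 3.62, 3.13, 3.36, 3.68, and 3.74, all inside the control range, and the SD was 0.25 against 1.48 in controls.

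The mean of Gstt1 rose in order from neutrons (3.54) and controls (4.29) to x-rays (8.40), 5% (9.01), 15% (9.18), and 25% (9.40). Neighbours in this order overlapped at every step but that from controls to x-rays. The differences from controls were 4.12 ± 0.62 (SE) after x-rays, 4.72 at 5%, 4.89 at 15%, 5.11 at 25%, and -0.74 after neutrons, given as a description because Gstt1 was chosen for this contrast. Within scan session 1, with 5 arrays against 5, the x-ray difference was 4.12. Within session 4, with 1 array of each group, it was 4.07 after x-rays, 4.40 at 5%, and 4.70 at 15%.

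The spread of Gstt1 among controls ran with the liver transcripts. The controls at 6.51 and 5.56 had liver means of 10.26 and 8.72, and the control at 4.31 had 6.87, whereas the other 3, at 2.70 to 3.36, had 0.53 to 4.32. With the liver mean as a covariate, the differences from controls were 4.11 after x-rays, 4.17 at 5%, 4.33 at 15%, 3.85 at 25%, and 0.07 after neutrons. On the arrays with a liver mean of 7.5 or less, 4 of them controls, the differences were 5.06 after x-rays, 5.49 at 5%, 5.61 at 15%, and 0.13 after neutrons. On the arrays above 7.5, where 2 controls remained, they were 2.22 after x-rays, 3.03 at 5%, 3.47 at 15%, and 3.37 at 25%. In neither this split nor the covariate model was the difference largest at 25%, so the order of the group means was not kept. No array at 25% had a liver mean of 7.5 or less, so that the first split holds no value for it. After x-rays, 5%, and 15% Gstt1 was above the controls in both splits, by a smaller amount where liver transcripts were high. These settings were chosen after the data had been seen.

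Gstm5, a mu class enzyme, was the member with the tightest controls and rose in all 5 exposures, neutrons included. The control arrays read 6.79, 6.71, 6.89, 6.78, 7.02, and 7.25. After x-rays Gstm5 read 9.23, 9.60, 9.85, 9.73, 9.61, and 9.76. After neutrons it read 9.24, 9.26, 9.10, 9.07, 9.53, and 9.67. Every array of both exposures lay above every control. The mixed field arrays read 7.87 to 10.42 at 5% (median 9.62), 8.90 to 10.60 at 15% (median 9.71), and 8.99 to 10.97 at 25% (median 9.52), again all above the controls. The differences from controls were 2.72, 2.52, 2.87, 2.73, and 2.40 after x-rays, 5%, 15%, 25%, and neutrons, or 5.29- to 7.31-fold. Gstm5 did not follow the liver transcripts upwards: the array at 5% with the highest liver mean, 12.61, had the lowest Gstm5 of that group. With the liver mean as a covariate its differences were 2.27 to 3.08. With normexp background correction they were 1.80, 0.45, 2.62, 1.99, and 0.66, beside all-gene medians of -0.78, -1.21, -0.18, -0.56, and -1.19. The red cell transcripts were also above the controls on every exposed array, and their part in the rise of Gstm5 was not tested.

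Gsto1, an omega class enzyme with thioltransferase and dehydroascorbate reductase activity, rose modestly in the exposures that contained x-rays. The control arrays read 6.48, 6.32, 6.48, 6.41, 6.81, and 6.88. After x-rays Gsto1 read 7.66, 7.30, 7.81, 7.71, 7.06, and 7.76, with no overlap with controls. At 15% it read 8.14, 8.43, 7.81, 7.94, 8.13, and 7.83, which are the highest values of any group by the mean. After neutrons it read 7.15, 6.96, 7.03, 6.75, 7.38, and 7.47, of which 5 lay above every control. The differences from controls were 0.99, 1.29, 1.49, and 1.34 after x-rays, 5%, 15%, and 25%, each called, and 0.56 after neutrons, which was not. With the liver mean as a covariate they were 0.99, 1.35, 1.5, 1.41, and 0.42, with the same calls. On the arrays low in liver transcripts, which were 4 after x-rays and 2 at 5%, Gsto1 was called at 15% and not after x-rays or at 5%.

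**Figure D2:**
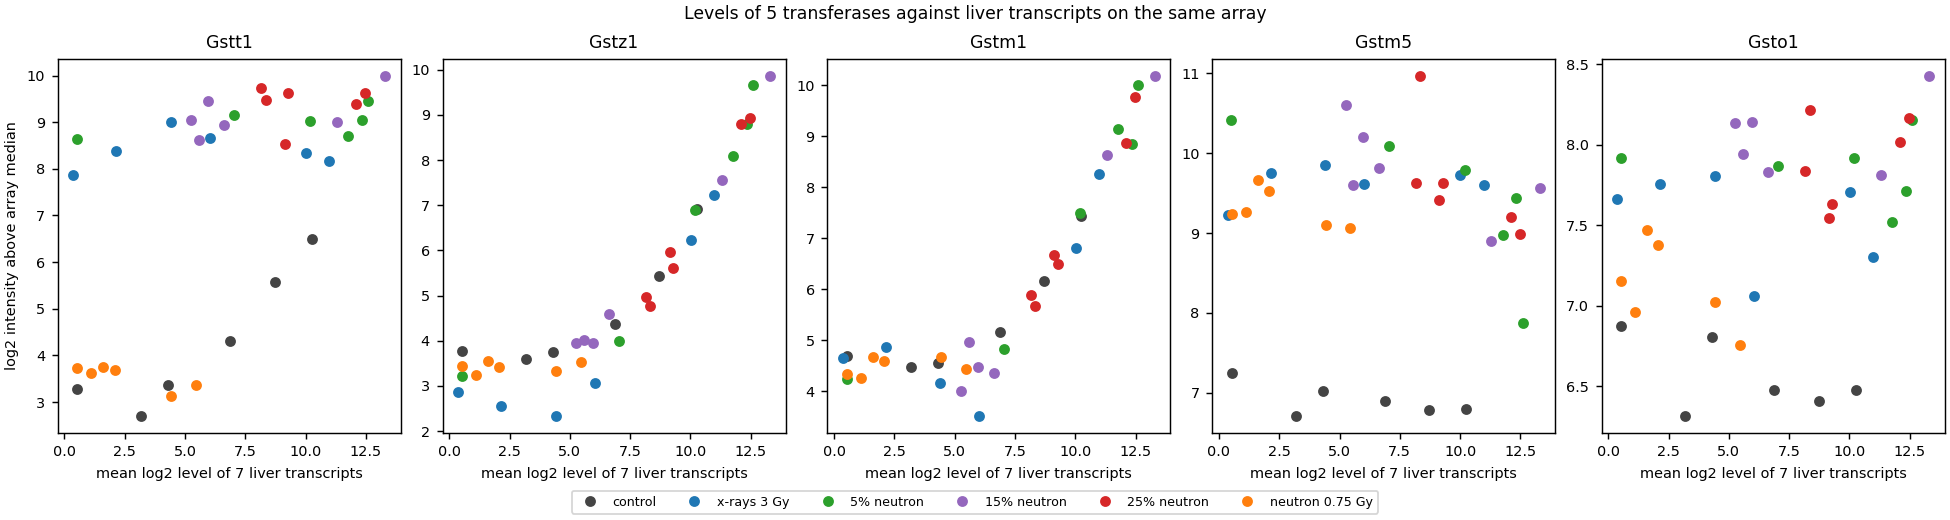
Log2 intensity above the array median (vertical axes) of 5 transferases against the mean log2 level of 7 liver transcripts on the same array (horizontal axes), with 36 arrays coloured by group. Gstz1 and Gstm1 rose with the liver transcripts on arrays above about 7.5 whatever the exposure, while Gstt1, Gstm5, and Gsto1 lay above every control on all arrays of the 3 Gy exposures.

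Gstp1, the pi class enzyme, was higher than in controls in the mixed fields but varied between arrays. The control arrays read 8.44, 5.91, 6.73, 6.88, 5.74, and 6.02 with the brighter probe. At 25% it read 10.63, 7.92, 8.29, 10.40, 8.87, and 8.14, and at 5% 7.91, 7.80, 11.15, 8.63, 9.11, and 9.30. These groups overlapped the highest control, which was the array with the highest liver mean of that group. The differences of 2.36 at 5% and 2.42 at 25% were called, and those of 1.17 after x-rays, 2.03 at 15%, and -0.15 after neutrons were not. The second Gstp1 probe gave differences of 2.09 at 5% and 2.14 at 25%. With the liver mean as a covariate the Gstp1 differences were 1.17, 1.67, 1.39, 1.12, and 0.40 after x-rays, 5%, 15%, 25%, and neutrons, and that at 15% was called in place of those at 5% and 25%. On the arrays low in liver transcripts they were 1.10 after x-rays, 1.76 at 5%, 1.88 at 15%, and 0.37 after neutrons. There Gstp1 was called at 5%, with 2 such arrays, and at 15%.

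Gstk1, the kappa class enzyme of mitochondria and peroxisomes, was called in no exposure. The control arrays read 5.22, 3.45, 3.57, 4.15, 3.42, and 3.60. At 15% it read 4.92, 8.22, 6.07, 4.99, 5.28, and 5.71, of which 4 lay above every control. The differences from controls were 2.18 at 5%, 1.96 at 15%, and 1.95 at 25%, none called, and 0.50 after x-rays and -0.17 after neutrons. Adjusted for the liver mean they were 1.49, 1.42, and 0.88 in the mixed fields, not called, and on the arrays low in liver transcripts Gstk1 was called at 15%.

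Gstm1 (mu class), Gstz1 (the zeta class enzyme, which isomerizes maleylacetoacetate in tyrosine breakdown), and Gstt3 (theta class) varied widely within groups and were called in no exposure against controls. Gstz1 read 6.92, 3.59, 4.37, 5.44, 3.75, and 3.78 in controls. At 5% it read 3.23, 3.99, 9.66, 6.90, 8.10, and 8.80. The 4 high arrays of the latter were those with a liver mean above 7.5. On the 20 arrays with a liver mean of 7.5 or less, Gstz1 lay between 2.34 and 4.60 and Gstm1 between 3.52 and 5.16. On the 16 arrays above it, Gstz1 lay between 4.76 and 9.86 and Gstm1 between 5.66 and 10.18, with no overlap for either gene. Both Gstm1 probes behaved alike in this split, at 1.74 to 3.51 and 4.33 to 9.28 for the dimmer one. With the liver mean as a covariate the differences of Gstm1, Gstz1, and Gstt3 went from 2.01, 2.14, and 1.85 to 0.65, 0.62, and 0.70 at 5%. They went from 0.69, 1.02, and 0.79 to -0.49, -0.18, and -0.32 at 15%, and from 1.81, 1.86, and 1.60 to 0.07, -0.09, and -0.11 at 25%. The covariate is a linear term, and other forms were not fitted. On the arrays low in liver transcripts the differences of Gstm1, Gstz1, and Gstt3 were -0.18, -0.26, and 0.22 at 5%. At 15% they were -0.26, 0.26, and 0.05, and none of these was called.

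Gstt2, the remaining theta class member, fell after neutrons. The control arrays read 3.59, 3.15, 2.96, 3.02, 2.92, and 3.19, and the neutron arrays 2.09, 2.04, 1.57, 1.5, 1.73, and 1.83, all below every control. The difference of -1.35 was called, and it was -1.37 with the liver mean as a covariate and -1.26 on the arrays low in liver transcripts. In the other exposures Gstt2 lay on both sides of the controls, with differences between -0.41 and 0.36. With the liver covariate these were -0.41, -0.03, -0.65, and -0.12 after x-rays, 5%, 15%, and 25%, none called. On the arrays low in liver transcripts they were -0.75 after x-rays, -0.58 at 5%, and -0.96 at 15%, the last called. Those arrays read 1.31 to 2.77, 2.45 to 2.50, and 1.95 to 2.39, all below the controls low in liver transcripts (2.92 to 3.19).

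Gsta4, the alpha class enzyme that conjugates 4-hydroxynonenal, a lipid peroxidation product, was too dim to be tested. Its probe, printed at 10 spots, was significantly above background on 52.8% of the arrays. It was well above background on 13 of the 16 arrays with a liver mean above 7.5, where it read up to 3.23, and on 0 of the 20 others.

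Counted against controls, 3 of the 9 tested members were called after x-rays, 4 at 5%, 3 at 15%, 4 at 25%, and 2 after neutrons. Of all genes tested, 29.8, 23.1, 29.1, 24.8, and 36.6% were called in these comparisons. Since the members were proposed with these contrasts known and all 5 share the same controls, nothing is read from the counts. Called were Gstt1, Gstm5, and Gsto1 in each 3 Gy exposure, Gstp1 at 5% and 25%, and Gstm5 and Gstt2 after neutrons, with Gstt2 as the member that was lower, in a comparison where 20.5% of all genes were lower. With scan session as a block, which leaves 1 array of each group that share a session, no member was called at 5% or 15%. With normexp background correction 1, 0, 2, 1, and 0 members were called in the 5 exposures, and the Gsto1 difference at 5% turned to -0.71. The share of all genes called under either setting is not given here, so nothing is read from these counts.

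**Figure D3:**
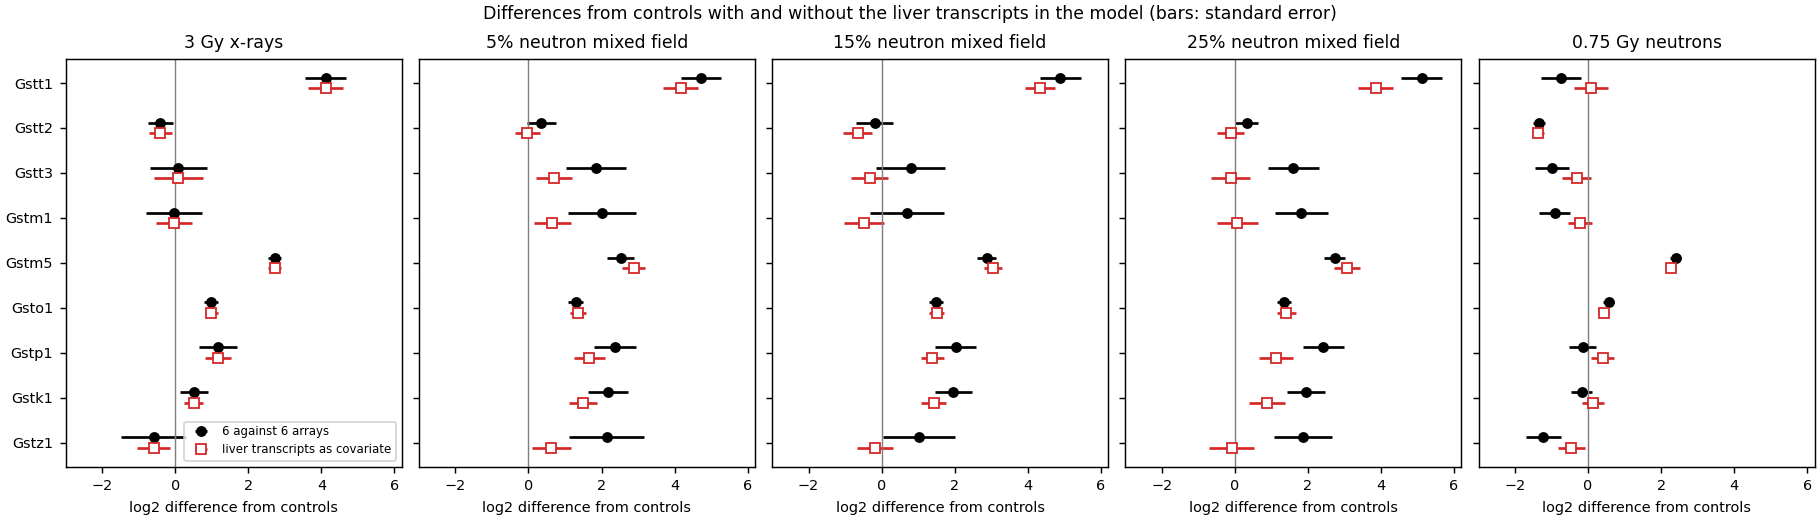
Log2 difference from controls (horizontal axis) of 9 tested transferases in 5 exposures, without and with the liver transcripts in the model (filled circles and open squares, with standard errors). The differences of Gstm5 and Gsto1 moved little, and those of Gstm1, Gstz1, and Gstt3 in the mixed fields moved towards 0.

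Exposures that contained neutrons were then compared with x-rays, which asks whether a member separated them at the same total dose. No member was called at 5%, 15%, or 25% against x-rays, where 0, 4.09, and 2.61% of all genes tested were called (limma, Benjamini-Hochberg adjustment over 15085 genes). At 15% these were 1.61% higher and 2.48% lower, and at 25% 0.749% higher and 1.86% lower. At 5%, where no gene was called at all, 3508 genes had an unadjusted p below 0.05 in limma, and 708 were called by a single limma model over all arrays. Gstm5 differed from x-rays by -0.20 at 5% (95% interval -1.01 to 0.61), 0.15 at 15% (-0.47 to 0.78), and 0.01 at 25% (-0.66 to 0.68), so that differences of up to about 1 in either direction were not resolved. Gsto1 was higher at 15% than after x-rays on 6 of 6 arrays, by 0.50 (-0.01 to 1.01, limma adjusted p = 0.185). For Gstk1 the differences were 1.68, 1.46, and 1.45, with limma adjusted p = 0.115, 0.0908, and 0.103, and with the liver mean as a covariate they were 1.01, 0.94, and 0.46. No member was called in these 3 comparisons with the covariate either, where the share of all genes called is not given here. The intervals of Gstz1 were the widest, at 0.27 to 5.19 for 5% against x-rays (limma adjusted p = 0.178).

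Between neutrons and x-rays, Gstt1 was the 1 member called, where 12.9% of all genes were called, 6.38% lower and 6.5% higher. It was lower by 4.86, on 6 of 6 arrays, as a description. The order of Gstt1 among the exposures was known when it was chosen, so its call is not read as a result. Gstm5 was lower after neutrons by 0.32 (95% interval -0.71 to 0.08, limma adjusted p = 0.211), on arrays that overlapped. Gstp1 was lower by 1.32, with limma adjusted p = 0.0213, and missed the unadjusted threshold. Without replicate 5 of the x-ray group, which had the lowest Gstp1 and Gstt2 of that group, both genes were called as well.

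The neutron exposure and the 25% mixed field delivered the same dose of neutrons, 0.75 Gy, without and with added x-rays, and were scanned in the same session. Of the 9 members, 7 were called lower after neutrons (11.4% of all genes were called in either direction, 7.36% lower and 4.02% higher). Gstp1 was lower by 2.57 (limma adjusted p = 0.000943), Gstt2 by 1.67 (0.0021), Gstz1 by 3.09 (0.0046), Gstt3 by 2.58 (0.0051), Gstm1 by 2.73 (0.0052), and Gstk1 by 2.13 (0.0053), each on 6 of 6 arrays without overlap. Gstt1, described above and chosen with its order among the exposures known, was the other. Gsto1 was lower by 0.78 on 6 of 6 arrays (limma adjusted p = 0.012) and missed the unadjusted threshold, and Gstm5 was lower by 0.33 (95% interval -0.96 to 0.31, limma adjusted p = 0.441). The members were proposed with the differences of every exposure from controls known, so p-values here and in the comparisons with x-rays are descriptive. These 2 groups also did not overlap in the liver mean, which was at least 8.16 at 25% and at most 5.45 after neutrons. With that mean as a covariate 1 member was called, Gstt1, at -6.19. The share of all genes called in that model is not given here, so nothing is read from this count. The differences of Gstm1, Gstz1, and Gstt3 turned to 0.52, 0.48, and 0.14. Those of Gstp1, Gstk1, and Gstt2 were then -0.57, -0.15, and -0.68, and those of Gsto1 and Gstm5 -0.88 and -1.49. With no overlap in the liver mean, the covariate model extrapolates for every gene. Exposure and liver transcripts therefore cannot be told apart in this comparison for any member, Gstt1 included.

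Of 44 other genes of glutathione metabolism, 43 were on the array and 33 were tested. Among these, 11 were called after x-rays (9 higher), 12 at 5% (10 higher), 13 at 15% (12 higher), 11 at 25% (10 higher), and 9 after neutrons (8 higher), or 33.3, 36.4, 39.4, 33.3, and 27.3% of those tested, beside the shares of all genes given above. Called higher were 12.9, 9.04, 12.6, 10.9, and 16.1% of all genes. The median differences of the list were 0.31, 1.36, 1.25, 1.38, and -0.12, and those of all genes -0.11, -0.08, -0.02, -0.12, and -0.12. The mean level of the liver transcripts was 5.65 in controls and 5.66, 9.08, 8.01, 9.92, and 2.53 in the exposures. In a model with the liver mean the list medians were 0.31, 0.82, 1.15, 0.62, and -0.06, beside all-gene medians of -0.11, -0.0004, -0.02, -0.04, and -0.25. In that model 12, 14, 13, 11, and 11 list genes were called. The share of all genes called in it is not given here, so nothing is read from these counts. The 10 genes that were not tested because of low signal were Gstm6, Gstm7, Gstt4, Gsto2, Gstcd, Hpgds, Slc7a11, Ggt7, Gpx3, and Gpx7.

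The 3 list genes with the largest rise averaged over the exposures were Mgst3, Chac2, and Glo1. Mgst3, a microsomal transferase, had a mean of 5.61 ± 0.36 (SD, n = 6) in controls, 9.10 ± 0.45 after x-rays, and 6.6 ± 0.36 after neutrons. Chac2, which cleaves glutathione, was higher by 2.14 to 2.75 in all 5 exposures. Glo1, the glyoxalase that detoxifies methylglyoxal as a glutathione adduct, was higher by 2.31 to 2.73 after the 3 Gy exposures and by 0.35, not called, after neutrons. Gpx2, a glutathione peroxidase, and Mgst2, a microsomal transferase linked to leukotriene synthesis, were the 2 genes of the list with the largest fall. Gpx2 was lower by 1.73 to 2.24 in the 3 Gy exposures, and Mgst2 was called lower after x-rays, at 5%, and after neutrons. Among the list genes that make glutathione, Gclm, the modifier subunit of glutamate-cysteine ligase, was called higher in all 5 exposures by 1.81 to 2.47, while Gclc, the catalytic subunit, was called in none, with differences of -0.66 to 0.60. Gss, glutathione synthetase, was called higher at 5, 15, and 25% by 1.77, 1.65, and 2.09, and differed by 1.29 after x-rays and -0.12 after neutrons, not called. These were chosen for mention after their values were seen.

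Gstt1 lies in a cluster with Gstt2, Gstt3, and other genes, and the neighbourhood was examined by position alone. Of 19 other genes with a probe within 250 kb of the Gstt1 probe, 13 were tested, and 5, 5, 5, 4, and 5 of them were called after x-rays, 5%, 15%, 25%, and neutrons, with 2 higher in each. These were 38.5, 38.5, 38.5, 30.8, and 38.5% of those tested, against 29.8, 23.1, 29.1, 24.8, and 36.6% of all genes. In a model with the liver mean 5, 4, 4, 3, and 5 were called, without the share of all genes in that model, so nothing is read from these. After x-rays, where Gstt1 was higher by 4.12, Gstt3, at -9.59 kb, differed from controls by 0.09, Ddt, at -12.4 kb, by -0.37, and Gstt2, at 48.6 kb, by -0.41. After neutrons Ddt, named after its values were seen, was called lower by 1.85. Higher in each 3 Gy exposure were Chchd10, which encodes a mitochondrial protein, at 153.8 kb, and Gm867, whose probe lies beside it at 153.9 kb. Chchd10 was higher by 2.01 to 2.58 after the 3 Gy exposures and differed by -0.20, not called, after neutrons. Gm867 was higher by 3.25 to 3.51 after 3 Gy and by 1.87 after neutrons. Lower were Vpreb3, a gene of the B-cell lineage, at 165.8 kb, by 3.99 to 4.44 after 3 Gy, and Smarcb1, a subunit of the SWI/SNF chromatin remodelling complex, by 0.87 to 1.55 in all 5 exposures. Mmp11, a matrix metalloproteinase, was called lower after x-rays, 5%, and 15%. Ggt5, a glutamyltransferase that acts on glutathione conjugates, was called after neutrons and in no other exposure, higher by 1.65 with the brighter of its probes. Its other probe differed by -0.57 after neutrons and by -1.69 after x-rays, so that the direction of Ggt5 depended on the probe.

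**Figure D4:**
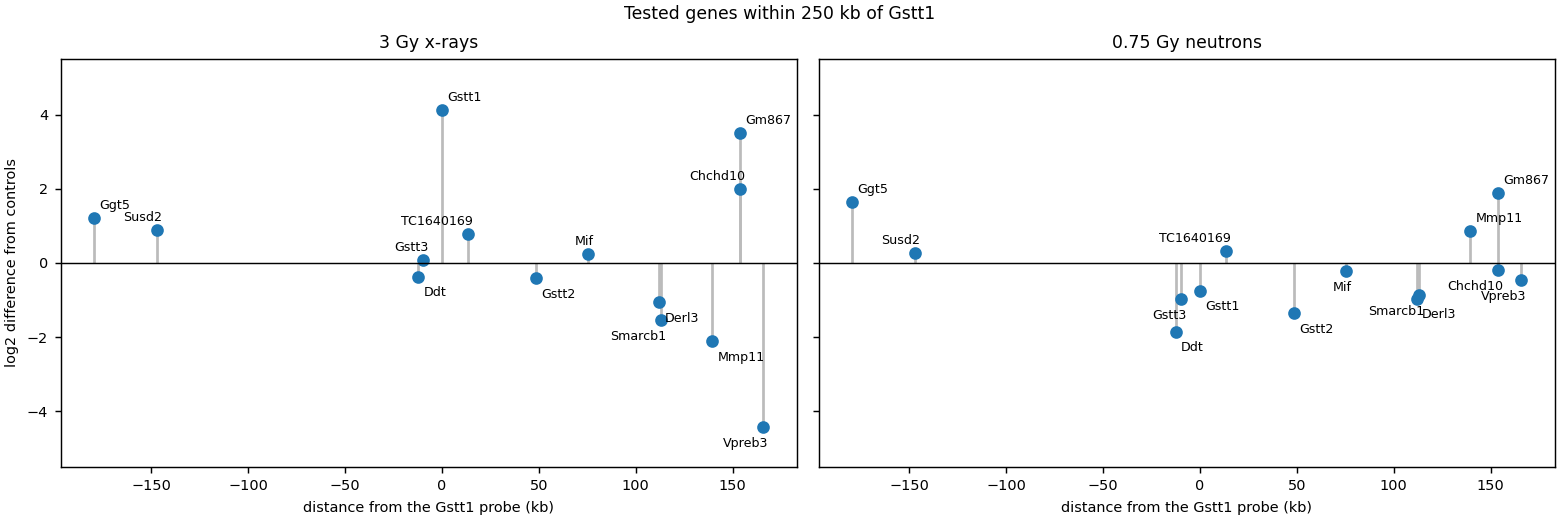
Log2 difference from controls (vertical axis) of the tested genes within 250 kb of the Gstt1 probe, by distance in kb (horizontal axis), after 3 Gy x-rays and after 0.75 Gy neutrons. Points are genes, each from 6 against 6 arrays. After x-rays Gstt3, Ddt, and Gstt2 lay between -0.41 and 0.09, and Chchd10 and Gm867 were raised.

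Genes with levels most like Gstt1 were found by Pearson correlation over the 36 arrays, which share the differences between groups, and are given as a description. Over all arrays they were Chchd10 (r = 0.935), Glo1 (0.934), Clec4g, a lectin of liver sinusoidal endothelium (0.931), Slc23a1, a vitamin C transporter (0.930), and Uqcrq, a subunit of respiratory complex III (0.928). All 5 were called higher after each 3 Gy exposure and not after neutrons. Uqcrq had a mean of 8.70 ± 0.24 (SD, n = 6) in controls, 10.21 ± 0.38 after x-rays, and 8.70 ± 0.10 after neutrons. After each group's mean was subtracted, the genes most like Gstt1 were 1300017J02Rik (r = 0.731), Reep6, a protein of the endoplasmic reticulum (0.703), Slc23a1 (0.685), Osbpl1a, an oxysterol binding protein relative (0.649), and Eps8l2 (0.616). The correlation of Gstt1 itself with the liver mean in this form was 0.449, against 0.874 for Gstz1, 0.858 for Gsta4, 0.832 for the brighter Gstm1 probe, 0.750 for Gstp1, 0.745 for Gstk1, 0.731 for Gstt3, 0.643 for Gstt2, -0.178 for Gsto1, and -0.516 for Gstm5, over 36 arrays.

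**Figure D5:**
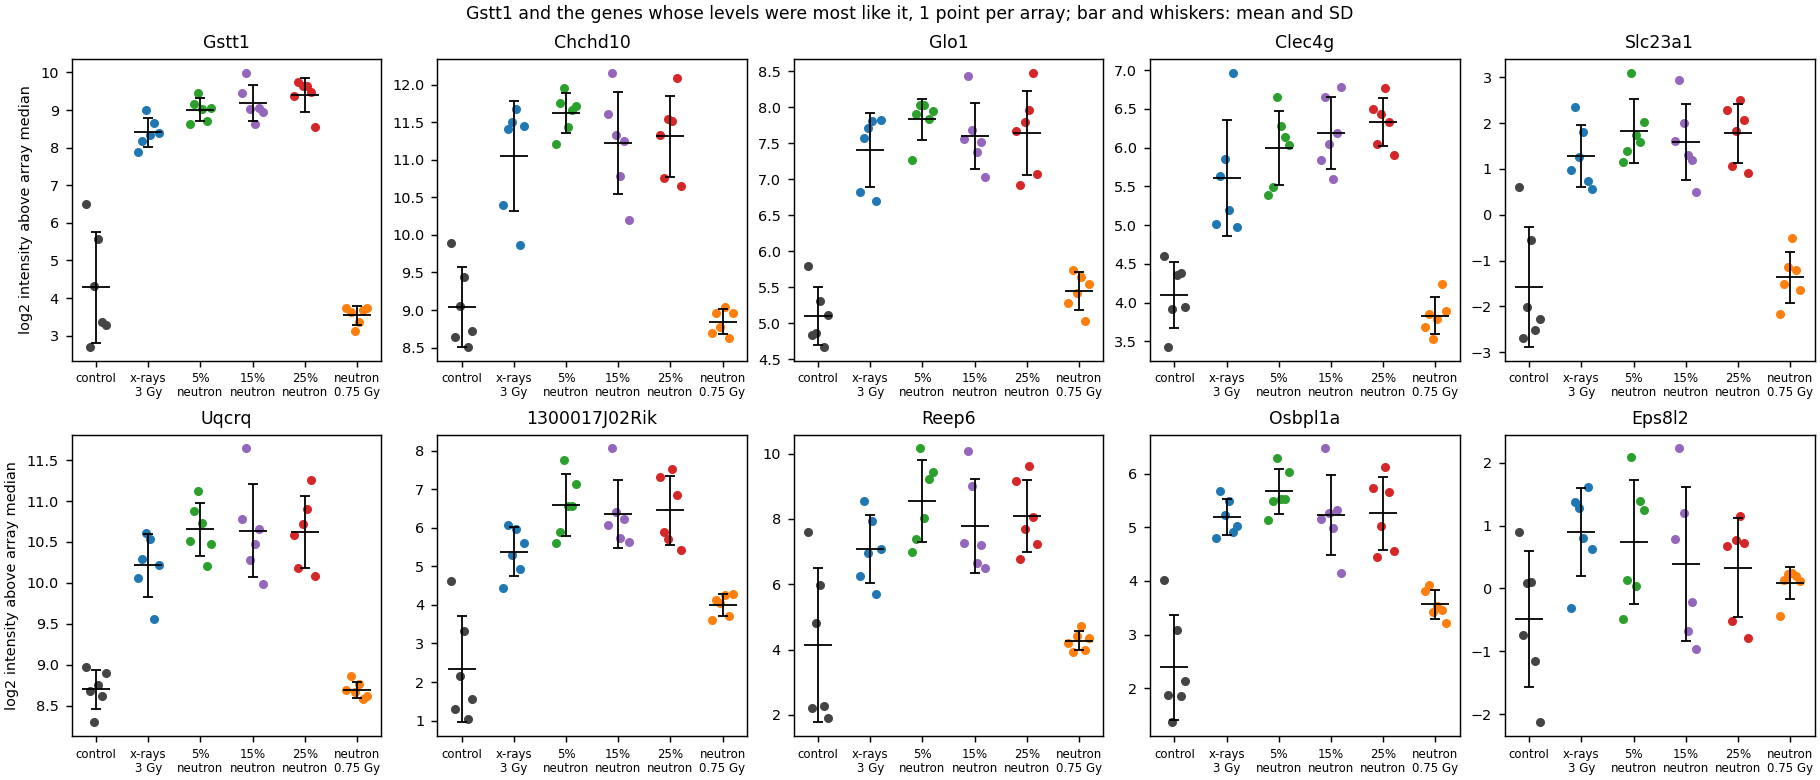
Log2 intensity above the array median (vertical axes) of Gstt1 and the 9 genes most like it on the 36 arrays by group. Points are arrays, with the mean and SD of 6. The first 6 panels show levels raised in the 3 Gy exposures and near the controls after neutrons.

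Promoter sequences of 8 of the 10 members were at hand in RefSeq (GRCm38.p6), without Gstt2 and Gsta4. The 250 bases before the start are shown for Gstt1, for Chchd10, whose level was most like it, and for Gstm5, which was also raised after neutrons. Capitals mark matches, on either strand, to letters of 3 motifs. TGAGTCA is a site bound by AP-1 and NF-E2 factors. TGACNNNGC is the core of the antioxidant response element. AGATAA is a site of GATA factors. The motifs were picked after the values were seen.
Gstt1, chr10:75797732-75797981, minus strand: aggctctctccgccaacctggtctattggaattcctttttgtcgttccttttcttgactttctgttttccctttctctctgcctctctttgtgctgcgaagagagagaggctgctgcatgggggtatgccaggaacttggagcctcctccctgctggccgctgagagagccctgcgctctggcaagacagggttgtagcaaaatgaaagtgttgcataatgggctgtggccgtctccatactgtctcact
Chchd10, chr10:75932880-75933129, plus strand: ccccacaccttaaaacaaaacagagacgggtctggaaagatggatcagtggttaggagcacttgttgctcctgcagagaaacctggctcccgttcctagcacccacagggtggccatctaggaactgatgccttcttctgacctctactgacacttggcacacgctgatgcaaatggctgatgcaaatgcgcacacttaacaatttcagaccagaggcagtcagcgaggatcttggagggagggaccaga
Gstm5, chr3:107895604-107895853, plus strand: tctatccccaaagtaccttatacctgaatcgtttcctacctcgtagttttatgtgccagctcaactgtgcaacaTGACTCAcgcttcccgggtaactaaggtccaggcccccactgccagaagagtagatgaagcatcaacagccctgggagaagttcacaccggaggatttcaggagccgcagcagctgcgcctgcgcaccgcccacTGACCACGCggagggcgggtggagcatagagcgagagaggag

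The Gstm5 window held 1 match to TGAGTCA and 1 to TGACNNNGC, and the windows of Gstt1 and Chchd10 held none of these letters. Of the other members, Gstp1 held 1 match to TGAGTCA and Gstk1 held 1 to AGATAA. Of 32851 promoter windows of the same length, 4.46% held TGAGTCA, 10.2% TGACNNNGC, and 9.99% AGATAA.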

How the data were processed

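Globin-cleared blood RNA of 36 mice was measured on single-colour arrays. The authors deposited scanner intensities for each array, background-corrected within the array by Agilent Feature Extraction 12.0.2 per the labels and not normalized between arrays. A table of log2 values that the authors deposited, normalized and filtered, was used as an alternative: its 14243 rows follow the scanner values of each array (lowest r = 0.995 across probes), and its column medians run from 6.28 to 6.99.

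The analysis ran in R 4.3.3 with limma 3.58.1, and files were read by version 1.17.8 of data.table. Python 3.11.15 with numpy 2.4.6 and matplotlib 3.10.9 served for sequences and plots. The log2 intensity of a probe is the mean of its spots, spots marked non-uniform left out, less the median over all gene probes of that array. Probes significantly above background on more than 75% of arrays (21484) and at least 1.5-fold from their own median on at least 20% of arrays (17963) were kept, with 1 probe, the brightest, for each gene. Each comparison used limma (lmFit, eBayes) on its 12 arrays, and genes were called at p below 0.001 with Benjamini-Hochberg adjusted p below 0.05. The number of arrays limits the precision. The fit was tested on simulated data. Nothing beyond the replicate numbers shows how the mice were grouped, so p-values measure the spread between these samples.

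The members, lists, and tests were chosen with earlier results of these data known. Named were all members, the called genes of the glutathione and neighbourhood lists with the 3 largest rises and falls, and the 5 genes most like Gstt1 by each of 2 correlations. Arrays with the same replicate number did not deviate together (mean r = 0.0375 over 90 pairs, lowest -0.747), and the numbers were not used as pairs. Alternatives covered scaling, background correction, filters, blocks, array weights, the threshold, and leaving out each array. Those with liver transcripts were added after the data had been seen. The sequences of members are those of the array files and RefSeq.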

Additional observations from a re-analysis of the deposited data

Results flagged for a closer look

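In 4 of 72 groups of 6 arrays examined for the 12 member probes, 1 array lay far from the other 5, where chance gives about 5%. Gstt1 on replicate 6 of the 25% mixed field read 8.54, while the next array read 9.38. The heart transcripts of that array had a mean of 5.29, and those of the other 5 arrays of the group at most -0.08. Gstm5 on replicate 5 of the 25% mixed field read 10.97, with the next array at 9.63. Gstp1 on replicate 6 of the neutron exposure read 6.74 with the brighter probe, against 6.38 to 6.47 on the others. Gstk1 on replicate 2 of the 15% mixed field read 8.22, with the next array at 6.07, and that array had the highest liver mean of the 36, 13.30.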

How the results depend on the processing

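The Gstt1 difference kept its direction in all 3 Gy exposures under every alternative run; its ranges with 1 array left out were 3.80 to 4.56 after x-rays, 4.41 to 5.17 at 5%, 4.58 to 5.34 at 15%, 4.80 to 5.56 at 25%, and -1.06 to -0.30 after neutrons. Normexp gave 2.93 after x-rays and 2.35 at 5%, the liver covariate 3.85 at 25%, and arrays high in liver transcripts alone 2.22, 3.03, 3.47, and 3.37. After neutrons the small difference, which was not called, changed sign to 0.07 and 0.13 in the 2 liver settings.

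Counts follow in the order of members, glutathione list, and neighbourhood. The share of all genes called under each alternative is not given beside them. No count here or with 1 array left out is therefore read as a result about the members or lists. Normexp gave 1, 1, and 2 after x-rays, 0, 0, and 1 at 5%, 4 and 2 of the lists at 15%, 1, 1, and 2 at 25%, 0, 0, and 1 after neutrons, and 4 members lower after neutrons than at 25%; the median difference of all genes was then -0.78, -1.21, -0.18, -0.56, and -1.19, and Gsto1 at 5% turned to -0.71. With the 75th percentile it was 0.44 after x-rays, against -0.11. Neighbours called higher and lower were then 3 and 2 at 5% (2 and 3 by the median), 3 and 1 at 15% (2 and 3), and 3 and 1 at 25% (2 and 2), list genes 9 and 0 after neutrons (8 and 1), and members 2 and 1 after neutrons (1 and 1). Scaling on probes above background gave 3 and 2 neighbours at 15% and 2 and 1 members after neutrons, and quantile normalization 1 and 3 neighbours after x-rays and at 15%. The session block could not be fitted for 25% and neutrons, nor the arrays low in liver transcripts for 25%. Quantile normalization called 2 members at 5% and 2 at 25%. The slide block called 0, 0, and 0 at 5%, 0, 1, and 1 at 15%, and 1 member between neutrons and 25%; the session block called 0, 0, and 1 at 5% and 0, 1, and 1 at 15%, where 1 pair of arrays shares a session. The replicate block called 8 members and 19 list genes at 25%. The adjusted p alone called 18 list genes and 9 neighbours after x-rays, 5 members at 15%, 19 list genes at 25%, 4 members and 18 list genes after neutrons, and 2 members between neutrons and x-rays, and array weights called 3 there. A single model called 1, 5, and 2 after neutrons and 4 members between neutrons and 25%. The deposited table called 3 neighbours at 15%. Without arrays high in liver transcripts, 3 neighbours were called after x-rays and 6 members at 15%. With the liver covariate Gstp1 was called at 15% and no longer at 5% or 25%, 1 member was called between neutrons and 25%, and Gstt3, Gstm1, and Gstz1 turned to 0.14, 0.52, and 0.48. The causes of these shifts were not tested.

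With 1 array left out, members called at 15% ranged from 3 to 5 (5 without control replicate 1), neighbours at 15% from 3 to 5 (3 without control replicate 2 or 6), members between neutrons and x-rays from 1 to 3 (3 without x-ray replicate 5), and members between neutrons and 25% from 3 to 7 (3 without neutron replicate 2, 4 without neutron replicate 4).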
